A study of Mus musculus with 6 samples.

Results

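The microRNAs (miRNAs) described here are the 5 main strands of the miR-99/100 and miR-125 families that the mouse array carries under the names mmu-miR-99a, mmu-miR-99b, mmu-miR-100, mmu-miR-125a-5p and mmu-miR-125b-5p. They are 5 of 1096 mouse probes, picked out by probe name, with earlier results of these data known when the families were chosen. They were measured with 1-colour arrays in total RNA from 6 livers or liver tumours of mice of C57BL6 background. STAM mice, which receive streptozotocin (STZ) and a high-fat diet and are described as developing hepatocellular carcinoma (HCC) at 18 weeks of age after non-alcoholic steatohepatitis (NASH), gave 3 HCC samples (HCC 1, 2-1 and 2-2) and 2 samples of non-tumour liver (NT 1 and 2). The sixth sample is 1 normal liver of a mouse labelled as control; its age and diet, and the age at which the STAM samples were taken, are not stated in its labels. The labels do not say whether HCC 2-1 and 2-2 came from separate animals, so p-values measure only the spread between these samples. With 1 to 3 arrays a group, the precision is limited by their number.

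A miRNA guides Argonaute proteins to messenger RNAs through its seed, bases 2 to 8 from its 5′ end, and lowers the output of the messengers it pairs with. In mammals the miR-99/100 and miR-125 genes lie with let-7 genes in clusters. MiR-99/100 are known to restrain mTOR and IGF1R, and miR-125, the vertebrate relative of worm lin-4, is known to act on Lin28 together with let-7. Lower miR-99a, miR-100 and miR-125b has been described in human liver cancer.

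The mature sequences are shown first, because the 5 members fall into families by seed and into other groups by gene. They are from RefSeq on the mouse assembly GRCm38.p6, in which all 5 probe names were matched, and capitals mark the seed.
miR-99a: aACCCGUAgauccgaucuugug
miR-100: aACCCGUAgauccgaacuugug
miR-99b: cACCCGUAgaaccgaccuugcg
miR-125b-5p: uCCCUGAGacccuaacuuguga
miR-125a-5p: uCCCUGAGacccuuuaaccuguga
MiR-99a, miR-100 and miR-99b share 1 seed, and miR-125a-5p and miR-125b-5p share the other. Counting from 1 at the 5′ end, miR-99a differs from miR-100 by U16A alone. MiR-99a differs from miR-99b by A1C, U11A, U16C and U21C. MiR-125a-5p has 24 bases and miR-125b-5p has 22; their first 13 bases are identical and 3 single-base changes separate the whole sequences. Whether a probe also binds its near-identical relatives was not tested, and this bears above all on the pair miR-99a and miR-100.

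By gene the members form 3 clusters on the plus strand. MiR-100 (chr9:41531437-41531458), let-7a-2 and the miR-125b-1 gene (chr9:41581940-41581961) lie within 50.6 kb, all inside the annotated long non-coding RNA Mir100hg. MiR-99a (chr16:77598940-77598961), let-7c-1 and the miR-125b-2 gene (chr16:77646279-77646300) lie within 47.4 kb, and no other gene of the RefSeq table used here overlaps them. MiR-99b (chr17:17830194-17830215), let-7e and miR-125a-5p (chr17:17830817-17830840) lie within 0.683 kb, inside the annotated gene Spaca6. Mature miR-125b-5p is thus the product of 2 genes, and its probe cannot tell them apart. The long-distance clusters and the compact chromosome 17 cluster each hold a member of both seed families.

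All 5 members were above background on all 6 arrays. Raw spot intensities ran from 27 for miR-99b in normal liver to 243 for miR-125b-5p on HCC 1, against background limits of 14.5 to 20.7 per array. An array limit is the mean of its blank spots plus 2 SD. The scanner was set to a gain of 39 (HCC 2-1 and 2-2) or 41 (HCC 1) for tumours and of 38 elsewhere, so the effect of gain cannot be told apart from that of tumour. Each of the 3 chips held 2 arrays: NT 1 beside normal liver on chip 1, HCC 1 beside NT 2 on chip 2, and HCC 2-1 beside HCC 2-2 on chip 3. Raw intensities are therefore not compared between arrays, and 2 scales are used below. The first is the log2 intensity after background correction with an offset of 50 and quantile normalization, on which all tests were run. The offset compresses differences of dim probes toward 0, which touches miR-99b and miR-125a-5p most. The second is the authors' deposited processed value, a background-subtracted linear signal in which each array's median is 25. Neither scale allows the level of 1 probe to be set against that of another. In bulk liver, fewer cells of a type and less RNA per cell cannot be told apart.

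MiR-99a, the chromosome 16 member, was highest in normal liver on the normalized scale. It lay at a log2 intensity of 7.57 in normal liver, 7.27 and 7.06 on NT 1 and 2, and 7.26, 6.88 and 6.92 on HCC 1, 2-1 and 2-2. Every STAM array was below the normal array, and HCC 1 lay level with NT 1. In the authors' deposited values miR-99a stood at 465 in normal liver, 473 and 519 on the NT arrays, and 442, 333 and 366 in HCC. There the NT arrays were at or above normal liver, and all 3 HCC arrays were below all 3 others.

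MiR-100, the chromosome 9 member, had a similar order of arrays. Its log2 intensity was 7.46 in normal liver, 7.20 and 7.03 on NT 1 and 2, and 7.28, 6.82 and 6.82 on HCC 1, 2-1 and 2-2. HCC 1 lay above both NT arrays, so tumour and non-tumour tissue overlapped. The authors' deposited values of miR-100 were 424 in normal liver, 414 and 491 on the NT arrays, and 469, 279 and 322 in HCC. HCC 2-1 and 2-2 were the low arrays on both scales.

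MiR-125b-5p, best known from blood stem cells and from its action on p53 in vertebrates, varied most among the tumours. Its log2 intensity was 7.97 in normal liver, 7.48 and 7.79 on NT 1 and 2, and 7.99, 7.60 and 7.05 on HCC 1, 2-1 and 2-2. The HCC arrays had an SD of 0.47, and HCC 1 was level with normal liver while HCC 2-2 was the lowest of all arrays. The authors' deposited values were 814 in normal liver, 623 and 891 on the NT arrays, and 864, 638 and 514 in HCC. The SD of the HCC arrays exceeded every difference between group means.

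The chromosome 17 members showed other patterns. MiR-99b was at a log2 intensity of 6.24 in normal liver, 6.24 and 6.29 on NT 1 and 2, and 6.17, 6.47 and 6.17 on HCC 1, 2-1 and 2-2. HCC 2-1 stood above the other arrays, which lay close together. Its authors' deposited values were 92.0 in normal liver, 95.8 and 149.5 on the NT arrays, and 102.0, 149.0 and 114.1 in HCC. On that scale normal liver was the lowest array, and NT and HCC overlapped.

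MiR-125a-5p was at a log2 intensity of 6.55 in normal liver, 6.56 and 6.75 on NT 1 and 2, and 6.53, 6.68 and 6.43 on HCC 1, 2-1 and 2-2. NT 2 was the highest array. The authors' deposited values were 158 in normal liver, 219 and 318 on the NT arrays, and 173.6, 222.7 and 190.8 in HCC. All 5 STAM arrays were above normal liver in the deposited values, whereas on the normalized scale HCC 1 and HCC 2-2 were below it. As deposited log2 values, the median of 343 probes was also above normal liver, by 0.32 in NT and 0.31 in HCC. Relative to that median miR-125a-5p was at 0.42 in NT and -0.00273 in HCC, and miR-99b at 0.06 and 0.08.

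**Figure D1:**
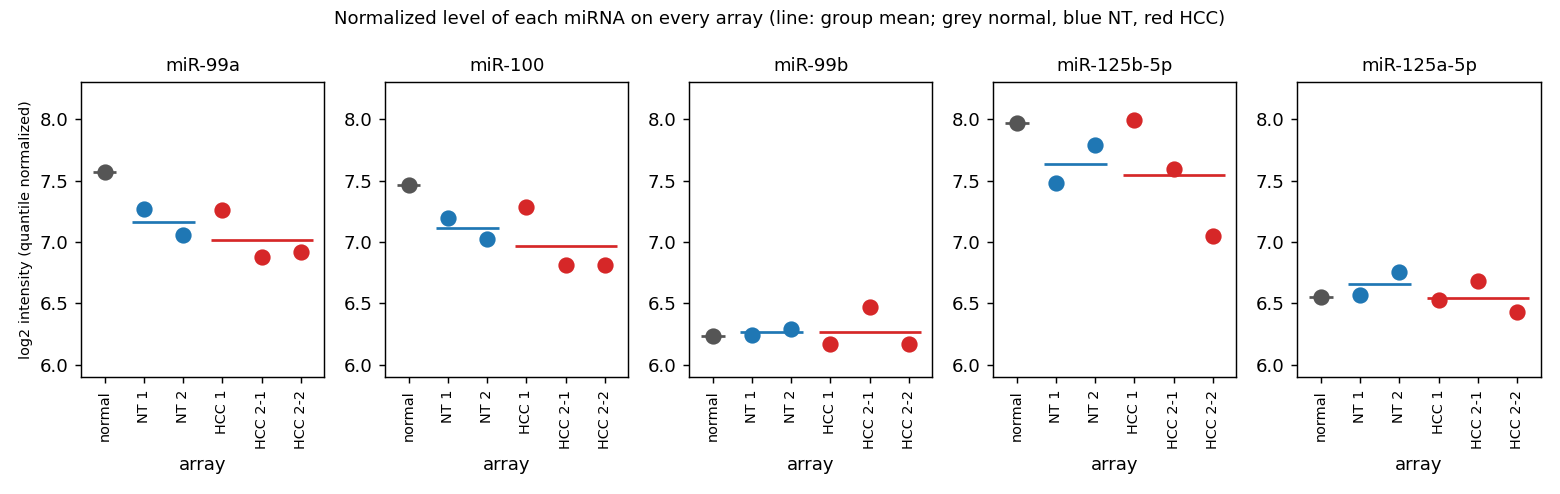
Log2 intensity after quantile normalization (y axis) of the 5 miRNAs on each array (x axis), 1 point per array, with a line at each group mean (grey normal, blue NT, red HCC). MiR-99a and miR-100 show the same order of arrays apart from HCC 1, with normal liver on top at 7.57 and 7.46.

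**Figure D2:**
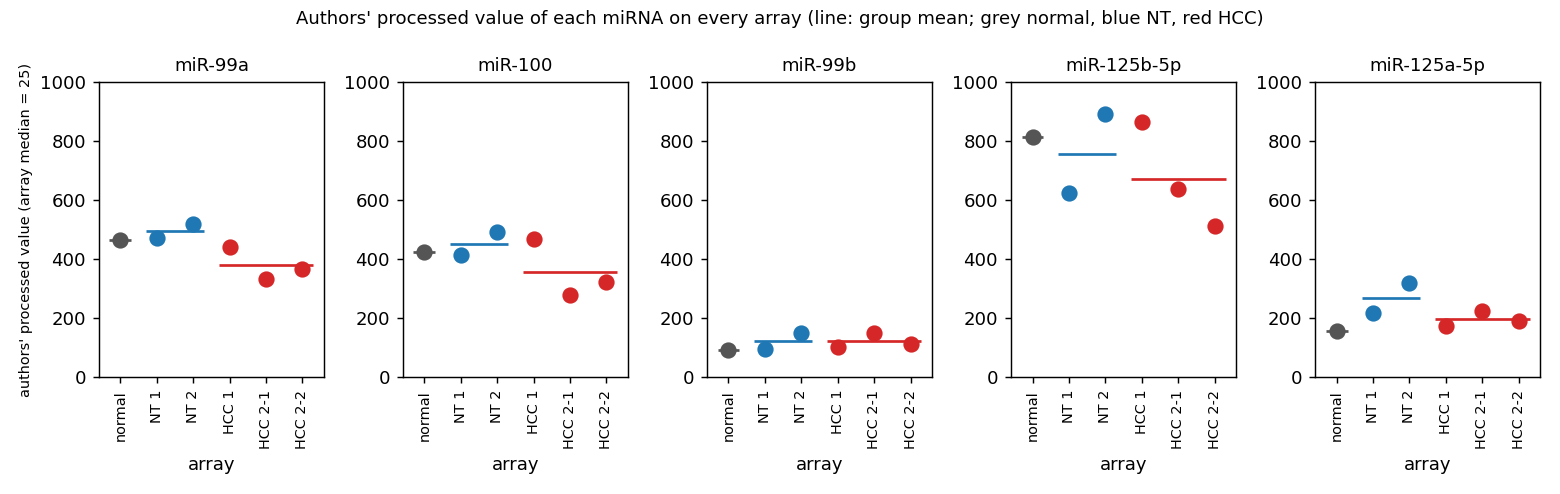
The authors' deposited processed value (linear, each array's median at 25, y axis from 0) of the 5 miRNAs on each array (x axis), with group means as lines. For miR-99a all 3 HCC arrays, at 333 to 442, lie below the other arrays, at 465 to 519.

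Ratios of members within an array do not depend on how arrays are scaled to each other, and their change from array to array shows whether members moved equally. The deposited values were used for this. MiR-99a over miR-100 was nearly constant: the ratio was 1.10 in normal liver, 1.14 and 1.06 on the NT arrays, and 0.943, 1.19 and 1.14 on HCC 1, 2-1 and 2-2. Its highest and lowest value differed 1.27-fold. Among 277 other probes above background on all arrays, 0 had a narrower ratio to miR-99a than miR-100 had, and 0 had a narrower ratio to miR-100 than miR-99a had; the median over these probes was 2.49-fold for miR-99a and 2.70-fold for miR-100. The genes of this pair lie on different chromosomes, and their mature sequences differ at 1 base. With probes this alike, binding of both miRNAs to both probes would also give a steady ratio, and this was not tested.

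Other pairs of 1 seed family had a less constant ratio than miR-99a and miR-100. MiR-99a over miR-99b was 5.05 in normal liver, 4.94 and 3.47 on NT 1 and 2, and 4.33, 2.24 and 3.21 on HCC 1, 2-1 and 2-2. All 5 STAM arrays were below normal liver, with NT 1 close to it, and the ratio ranged 2.26-fold. Of the 277 probes, 112 had a narrower ratio to miR-99a than miR-99b had, and 140 were narrower to miR-99b than miR-99a was. MiR-125b-5p over miR-125a-5p was 5.17 in normal liver, 2.85 and 2.80 on the NT arrays, and 4.98, 2.86 and 2.69 on HCC 1, 2-1 and 2-2. Of the 5 STAM arrays 4 lay in a narrow band between 2.69 and 2.86, and HCC 1 was level with normal liver. This ratio ranged 1.92-fold, against a median of 2.80-fold for the 277 probes with miR-125b-5p. Of these, 30 were narrower to miR-125b-5p than miR-125a-5p was, and 62 were narrower to miR-125a-5p than miR-125b-5p was. All 5 STAM arrays were also below normal liver in both ratios after subtraction of the blank level from the raw spots. As differences of normalized log2 values, 4 of 5 were for the miR-125 pair, with HCC 1 above normal liver. With 1 normal array these differences have no replicate check and were not tested.

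Between members of 1 cluster the ratios were narrower than between seed relatives other than miR-99a and miR-100. MiR-99b over miR-125a-5p, neighbours on chromosome 17, was 0.584 in normal liver, 0.438 and 0.470 on the NT arrays, and 0.587, 0.669 and 0.598 in HCC. The NT arrays were lowest and did not overlap with HCC, and the range was 1.53-fold. Of the 277 probes, 5 had a narrower ratio to miR-99b than miR-125a-5p had. On the normalized log2 scale the NT and HCC differences of this pair overlapped. MiR-99a over miR-125b-5p ranged 1.49-fold, from 0.511 on HCC 1 to 0.760 on NT 1, and miR-100 over miR-125b-5p ranged 1.52-fold, from 0.438 on HCC 2-1 to 0.664 on NT 1. Of the 277 probes, 1 was narrower to miR-125b-5p than miR-99a was, and 2 were narrower than miR-100 was. In the other direction 17 were narrower to miR-99a and 8 to miR-100 than miR-125b-5p was, and 8 were narrower to miR-125a-5p than miR-99b was. Ratios between the seed families of a cluster thus ranged less than those between seed relatives of chromosome 17 and the longer clusters. The 2 ratios to miR-125b-5p cannot be assigned to 1 chromosome, as its probe reads the product of 2 genes. MiR-125a-5p had a narrower ratio to let-7c, at 1.41-fold, than to miR-99b, although the let-7c genes lie on chromosomes 15 and 16. All of this is a description of 6 arrays with no test.

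**Figure D3:**
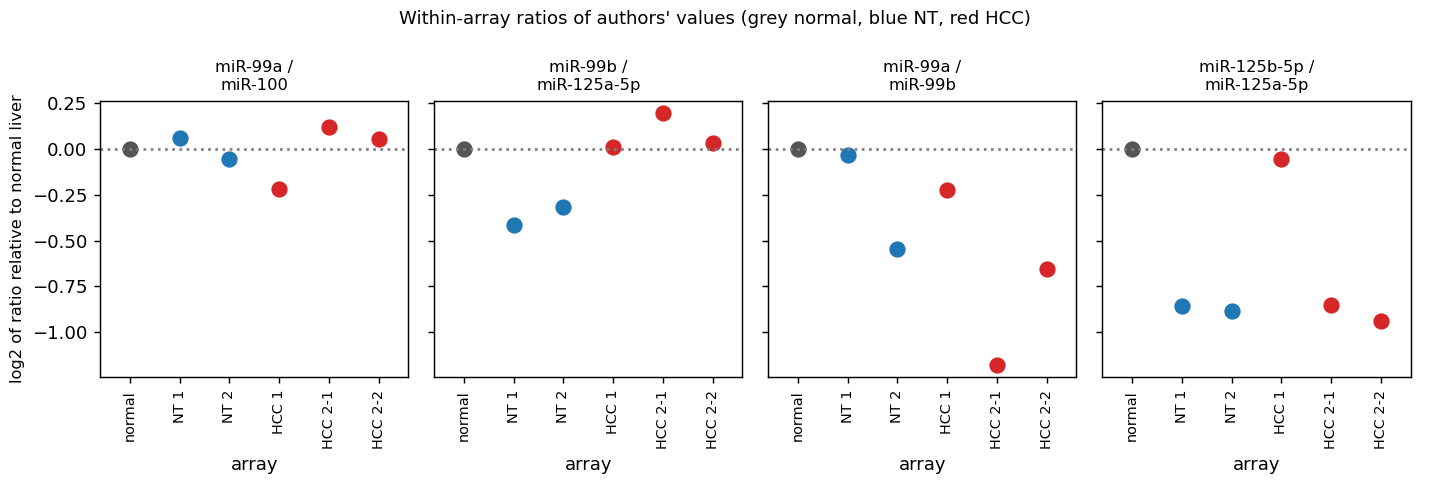
Log2 of the within-array ratio of authors' deposited values, set to 0 in normal liver (y axis), for 4 pairs of members on each array (x axis). MiR-99a over miR-100 stays near 0 on all arrays, while miR-125b-5p over miR-125a-5p is lower on all STAM arrays, and on HCC 1 only slightly.

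The comparison of HCC with NT addresses tumour against non-tumour tissue of STAM mice. On the normalized log2 scale 4 of the 5 members had a lower mean in HCC, as did 48.9% of tested probes, and 1 had a higher one, as did 51.1%. The members had a median difference of -0.11 for the 5 members against 0.00135 for all 613 tested probes, and none passed the test. MiR-99a was at 7.17 ± 0.15 in NT (SD, n = 2) and 7.02 ± 0.21 in HCC (n = 3). Its difference of HCC minus NT was -0.15, with a 95% interval of -0.52 to 0.23 (limma's adjusted p 0.832). MiR-100 was at 7.11 ± 0.12 and 6.97 ± 0.27, a difference of -0.14 with an interval of -0.59 to 0.31 (limma's adjusted p 0.841). For miR-125a-5p, at 6.66 ± 0.13 in NT and 6.55 ± 0.13 in HCC, the difference was -0.11 (-0.38 to 0.15).

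MiR-125b-5p had the widest interval of the 5 in this comparison, -0.87 to 0.70 around a difference of -0.09 between 7.64 ± 0.22 in NT and 7.55 ± 0.47 in HCC. MiR-99b, at 6.27 ± 0.04 in NT and 6.27 ± 0.18 in HCC, had a difference of 0.00364 (-0.29 to 0.29). By limma's test with Benjamini-Hochberg adjustment 0 of the 5 members passed 0.05, as did 0 of all 613 probes (0%); at an unadjusted p under 0.05 the counts were 0 of 5 and 56 of 613 (9.14%). The arrays of HCC and NT overlapped for every member, while 12.7% of tested probes were lower on all HCC arrays without overlap and 10.9% were higher.

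The direction of these small differences depended on how the arrays were normalized. In the deposited values, as on the normalized scale, 4 members had a lower mean log2 value in HCC. MiR-99a averaged 496 ± 32.0 in NT and 381 ± 55.7 in HCC, and miR-125a-5p averaged 268 ± 70.5 and 196 ± 24.9, while miR-99b was nearly level at 123 ± 38.0 and 122 ± 24.4, with a log2 difference of 0.00562. With arrays scaled to an equal median in place of quantile normalization, miR-99a, miR-100, miR-125a-5p and miR-125b-5p were higher in HCC by 0.10, 0.07, 0.01 and 0.21, none of them past the test. Relative to the median of all tested probes in that setting, which was 0.03 higher in HCC, they were at 0.07, 0.04, -0.02 and 0.18. On chip 2, which alone carried tumour and non-tumour tissue, the normalized log2 value of HCC 1 minus that of NT 2 was 0.20 for miR-99a, 0.26 for miR-100 and 0.20 for miR-125b-5p but -0.12 for miR-99b and -0.23 for miR-125a-5p. In the deposited values, as log2, the same gaps were all negative. They were -0.23 for miR-99a, -0.07 for miR-100, -0.04 for miR-125b-5p, -0.55 for miR-99b and -0.87 for miR-125a-5p. The deposited medians rest on 588 values for HCC 1 and 633 for NT 2. Such a gap can therefore hold a shift of all probes, which was not measured.

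The comparison of NT with normal liver concerns the non-tumour tissue of STAM mice, with 1 control array and so no spread on the control side. Normalized log2 levels of miR-99a, miR-100 and miR-125b-5p were lower on both NT arrays, and those of miR-99b and miR-125a-5p higher on both; 48.6% of tested probes had a higher mean in NT and 51.4% a lower one. The differences of NT minus normal were -0.40 for miR-99a (-0.91 to 0.10), -0.35 for miR-100 (-0.96 to 0.25) and -0.33 for miR-125b-5p (-1.39 to 0.72). They were 0.10 for miR-125a-5p (-0.25 to 0.46) and 0.03 for miR-99b (-0.36 to 0.42). None of the 5 passed limma's test, in which 1 of 613 probes (0.163%) did. At an unadjusted p under 0.05 the counts were 0 of 5 and 77 of 613 (12.6%). Lying below normal liver on both NT arrays is common, as 35.1% of tested probes did, and 36.7% lay above it on both.

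For miR-125b-5p the direction was the same in all 18 alternative settings of that comparison, and so was that of miR-125a-5p. For miR-99a and miR-100 it turned in 3 of 18 each; in the deposited values NT was 0.09 above normal liver for both on the log2 scale. The median of all 343 probes with complete deposited values was 0.32 above normal liver, and relative to it miR-99a and miR-100 in NT were lower, at -0.23 each. MiR-125a-5p in NT was 0.74 above normal liver in the deposited values, or 0.42 relative to that median. Taken relative to the median of all probes in each setting, the direction of miR-99a was kept in 17 of 18 settings and that of miR-100 in 15 of 18. Some of the 18 settings cannot move the difference of NT minus normal itself: another filter or prior, and HCC arrays averaged or left out. Its direction was fixed in advance in those settings.

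The comparison of HCC with normal liver uses the same single control array. MiR-99a had the lowest unadjusted p of the members, 0.0316. Its normalized log2 difference of HCC minus normal was -0.55, with an interval of -1.02 to -0.07, or 1.46-fold lower on the offset scale, and it was lower on all 3 HCC arrays; limma's adjusted p was 0.289. MiR-100 was also lower on all 3 HCC arrays, at -0.49 (-1.06 to 0.08, limma's adjusted p 0.345). MiR-125b-5p differed by -0.42 (-1.41 to 0.57), with HCC 1 above normal liver. MiR-125a-5p, at -0.01 (-0.34 to 0.32), and miR-99b, at 0.03 (-0.33 to 0.40), had HCC arrays on both sides of normal liver.

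By limma's test 0 of the 5 members passed in this comparison, against 1 of 613 probes (0.163%), and at an unadjusted p under 0.05 the counts were 1 of 5 and 99 of 613 (16.2%). Both miRNAs without overlap, miR-99a and miR-100, were on the lower side, where 30.8% of tested probes lay below normal liver on all HCC arrays and 33% above it. The mean was lower in HCC for 4 of 5 members and for 47.8% of tested probes, and higher for 1 of 5 and for 52.2%. Among the 282 probes above background on all arrays, 6.03% had a lower difference than miR-99a, 7.45% than miR-100 and 8.87% than miR-125b-5p, against 51.4% for miR-125a-5p and 61.3% for miR-99b. Scaling to an equal median turned miR-99a, miR-100 and miR-125b-5p to 0.13, 0.15 and 0.20, or 0.06, 0.08 and 0.13 relative to the median of all probes. In the deposited values, as log2, they kept their direction at -0.30, -0.29 and -0.31, none of them past the test. Relative to the median of all probes there they were at -0.61, -0.59 and -0.62. Subtracting the blank level with a floor brought miR-99a, miR-100 and miR-125b-5p past the test, but in that setting 470 of 613 probes passed and the median of all probes shifted by -1.24; with arrays scaled before the floor 0 of the 5 members passed. With the chip as a block the differences were -0.10 for miR-99a and -0.01 for miR-100. These rest only on HCC 1 against NT 2 and on NT 1 against normal liver. HCC 2-1 and 2-2, which share chip 3 with no other group, do not enter them, so they are no chip adjustment of all 3 tumours.

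**Figure D4:**
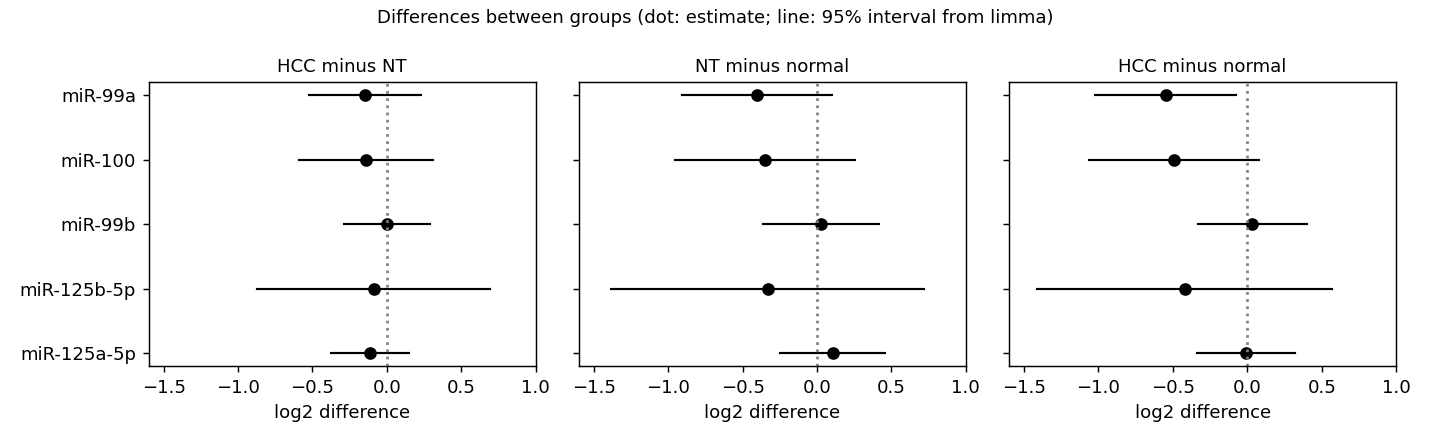
Log2 differences between group means (x axis) for the 5 miRNAs (y axis) in the 3 comparisons, with 95% intervals from limma as lines. Only the interval of miR-99a in HCC minus normal, from -1.02 to -0.07, excludes 0 before adjustment.

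**Figure D5:**
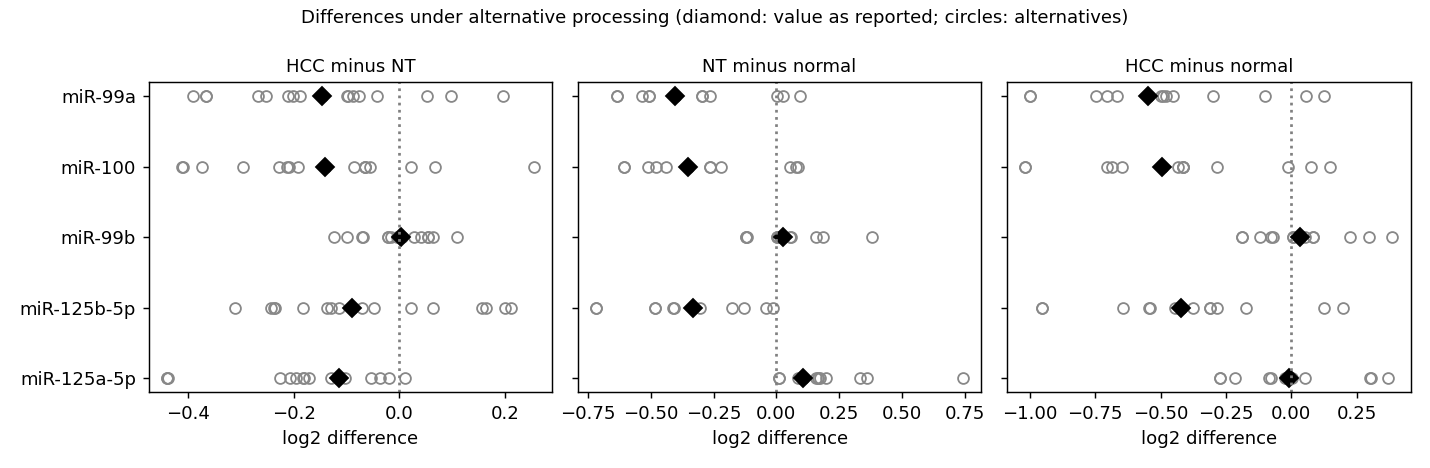
Log2 differences (x axis, with its own range in each panel) of the 5 miRNAs in the 3 comparisons as reported (diamonds) and under the alternative settings (circles). The circles of miR-99a and miR-100 lie on both sides of 0 in all 3 panels.

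The let-7 miRNAs of the same clusters, which restrain growth in differentiated cells, had a different profile from their miR-99/100 neighbours on the normalized scale. Normalized log2 levels of let-7c were 9.88 in normal liver, 10.10 and 10.05 on NT 1 and 2, and 9.79 on each HCC array. Those of let-7a were 10.31, then 10.57 and 10.38, then 10.05, 10.25 and 10.19. Those of let-7e were 7.71, then 7.94 and 7.91, then 7.42, 7.87 and 7.85. In every case NT exceeded normal liver on both arrays and exceeded all 3 HCC arrays, as did 36.7% of tested probes for the former and 12.7% for the latter, and 0 of 3 passed limma's test in any comparison. In the deposited values miR-99a had this order too, with NT at 473 and 519, normal liver at 465 and HCC at 442 or less. Let-7e did not keep it there, as HCC 2-2, at 980, exceeded NT 1, at 945. The contrast with miR-99a thus depended on the scale. The mature let-7a and let-7c also come from genes outside these clusters, and let-7 sequences differ from each other by as little as 1 base.

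The deposited ratio of miR-99a to let-7c was 0.134 in normal liver, 0.0878 and 0.0911 on the NT arrays, and 0.140, 0.0787 and 0.0760 on HCC 1, 2-1 and 2-2. HCC 1 was level with normal liver and the other STAM arrays were lower. MiR-100 over let-7a ran the same way, at 0.0943 in normal liver, 0.0625 and 0.0685 on the NT arrays, and 0.113, 0.0490 and 0.0489 in HCC. On chromosome 17 the ratio of miR-99b to let-7e was 0.157 in normal liver, 0.101 and 0.144 on the NT arrays, and 0.174, 0.160 and 0.116 in HCC, with overlapping groups. These ratios to let-7 ranged 1.85-fold for miR-99a, 2.31-fold for miR-100 and 1.72-fold for miR-99b, wider than those between members of a cluster. The ratio of miR-125a-5p to let-7e ranged 1.58-fold, close to the 1.53-fold of miR-99b over miR-125a-5p.

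Of the 6 passenger strands of the members on the array, 3 were tested, and 1, miR-125a-3p, was above background on all arrays. Its hairpin is shown because both of its arms gave signal. It lies at chr17:17830812-17830879 (GRCm38.p6, plus strand), and capitals mark the 5p arm and then the 3p arm.
Mir125a hairpin: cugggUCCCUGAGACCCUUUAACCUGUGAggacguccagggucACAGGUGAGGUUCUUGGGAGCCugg
The normalized log2 level of miR-125a-3p was 7.89 in normal liver, 7.87 and 7.42 on NT 1 and 2, and 7.71, 7.41 and 7.28 on HCC 1, 2-1 and 2-2. All STAM arrays were below normal liver, and HCC and NT overlapped. The deposited ratio of the 5p to the 3p arm was 0.193 in normal liver, 0.275 and 0.480 on the NT arrays, and 0.256, 0.375 and 0.340 in HCC. It was higher on all 5 STAM arrays than in normal liver, which also held after subtraction of the blank level and on the normalized scale. The arms thus kept no fixed ratio between arrays, which no test covers with 1 normal array. The miR-125a-3p level of HCC was -0.18 relative to NT and -0.42 relative to normal liver, and that of NT was -0.24 relative to normal liver; limma's adjusted p was 0.837, 0.474 and 0.725.

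The passenger strands of miR-99a and miR-100 were above background on 0 of 6 arrays, that of miR-99b on 2, and the 3p strands of the miR-125b-1 and miR-125b-2 genes on 1 and 2. At this signal the 2 genes of miR-125b could not be told apart by their passenger strands.

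Relatives in sequence show how far the seed families reach. They are from RefSeq on GRCm38.p6, with the seed in capitals.
miR-351: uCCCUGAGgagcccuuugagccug
miR-10a: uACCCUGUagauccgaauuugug
miR-10b: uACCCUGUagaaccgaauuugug
MiR-351 has the miR-125 seed, and it alone among the other probes matched to RefSeq has the seed of a member. In RefSeq 3 of 1679 mature mouse miRNAs have the miR-99/100 seed and 5 have that of miR-125. MiR-10a and miR-10b, from the Hox gene clusters, do not share a seed with the members, yet miR-10a is 3 single-base changes from miR-100. Normalized log2 levels of miR-10a were 6.98 in normal liver, 7.03 and 6.95 on NT 1 and 2, and 6.37, 6.68 and 6.75 on HCC 1, 2-1 and 2-2. On this scale miR-10a was thus lower on all HCC arrays than on any other array. Its difference of HCC minus NT was -0.39 (-0.71 to -0.06, limma's adjusted p 0.536). Of all tested probes 12.7% were lower on all HCC arrays than on NT. In the deposited values of miR-10a HCC 2-2, at 326, was above normal liver, at 260. MiR-10b differed by -0.14 and miR-351 by less than 0.01 in size (-0.00308), both without passing. Of the 4 listed relatives, which include miR-670, 3 had a lower mean in HCC than in NT and 0 passed in any comparison.

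The miRNAs whose normalized levels followed each member most closely were found by Pearson's r over the 6 arrays. MiR-99a and miR-100 followed each other at 0.983. The other miRNAs closest to a member were sought among 275 single-name probes above background on all arrays, members left out. They were miR-770-5p (0.947) and miR-1935 (0.946) for miR-99a, and miR-652* (0.984) and miR-5105 (0.958) for miR-100. For miR-125b-5p they were miR-720 (0.901) and miR-665 (0.877), for miR-125a-5p miR-1196 (0.811) and miR-1249 (0.798), and for miR-99b miR-182 (0.953) and miR-96 (0.888). All values of a pair share their arrays and normalization, and r is a description. In the authors' deposited values the same r was 0.895 and 0.814 for miR-182 and miR-96 with miR-99b, but -0.31 for miR-5105 with miR-100 and 0.190 for miR-1196 with miR-125a-5p.

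The labelled tissue and other cell types were read from fixed marker lists. MiR-122, the defining miRNA of hepatocytes, was above background on all arrays, with deposited values of 31963 in normal liver, 37895 and 28991 on NT 1 and 2, and 10165 to 29686 in HCC. The 7 hepatocyte markers summed to 44323 in normal liver, 50202 and 39021 on the NT arrays, and 17444 to 40763 in HCC, mostly from miR-122. On the normalized scale 7 of 7 had a lower mean in HCC than in NT. In NT 6 of 7 were lower than in normal liver and 1 was higher, and in HCC 7 of 7 were lower than in normal liver. HCC 1, the tumour in which miR-99a, miR-100 and miR-125b-5p were highest, had the lowest miR-122. Of 7 mesenchymal and stellate markers, miR-10b among them, 7 were higher in NT than in normal liver and 7 were lower in HCC than in NT, with summed deposited values of 884 in normal liver, 1472 and 2304 on the NT arrays, and 884 to 1083 in HCC. Of 7 leukocyte markers 6 were higher in NT than in normal liver and 7 lower in HCC than in NT; they summed to 468 in normal liver, 1136 and 1674 on the NT arrays, and 781 to 1085 in HCC. The 3 erythroid markers summed to 88.6 in normal liver, 2530 and 2769 on the NT arrays, and 1995 to 3241 in HCC. The 2 endothelial markers summed to 3429, then 6560 and 6684, then 2908 to 7443 in the same order, and the 8 bile duct and epithelial markers to 580, then 698 and 704, then 140 to 617. The defining markers miR-145, miR-223, miR-451, miR-126-3p and miR-200a were above background on every array. The part of these cell types in the members' levels was not tested.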

How the data were processed

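Hy5 was the label of the RNA, attached with a miRCURY LNA kit per the labels' protocols. The chips were Toray mouse miRNA arrays (design version 17), read at 635 nm per the file headers. Scanner output as deposited gives the raw intensity of each spot and its local background, with no subtraction or normalization recorded. The authors' deposited value table holds a background-subtracted linear signal with a median of 25 per array; set against the spot intensity each column is a straight line (r at least 0.99996 across probes). Scale and direction are thus known, but the rule for empty values is unknown.

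Background correction was normexp on all spot intensities, offset 50 (limma 3.58.1 under R 4.3.3). Quantile normalization was then applied to the log2 values of 1095 probes for mouse miRNAs; 1 probe with a spot marked not OK was left out. The background limit of an array used 1818 blank spots without the highest and lowest 5%. The 613 probes above it on at least 2 of 6 arrays entered 1 limma model with 3 groups (degrees of freedom 3 residual, 1.63 prior). The 2-sided p-values were adjusted by Benjamini-Hochberg over all 613 at 0.05. The model was tested on simulated data. Alternatives covered normalization, background, filter, prior, chip, label number and each replicate left out; 1 was added after seeing the data. Named miRNAs are the members, their cluster, passenger and seed relatives and the 2 closest by r. The members and lists were chosen with earlier results of these data known. A star name was matched to the RefSeq 3p strand and a bare name to the 5p strand.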

Additional observations from a re-analysis of the deposited data

How the results depend on the processing

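In all alternative settings but 1 no member passed in any comparison. The exception subtracted the blank level, set a floor of 10 and then scaled the arrays: 3 members passed for HCC minus normal, miR-99a (-0.999), miR-100 (-1.02) and miR-125b-5p (-0.95), beside 470 of all 613 probes, since scaling after the floor shifts every probe at the floor. Scaled before the floor, an alternative chosen after seeing the data, 0 members and 25 probes passed. The exception, scaled after the floor, called 9 probes for HCC minus NT and 2 for NT minus normal. Over the other settings the number of probes called ran from 0 to 3 for HCC minus NT, from 0 to 26 for NT minus normal and from 0 to 25 for HCC minus normal, against 0, 1 and 1 as reported.

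There were 275 alternative values of a member's difference. Some could not change, as with another filter or prior or an array outside the comparison left out. Of the 275 values, 47 had the other sign, and 48 did relative to the median of all probes in the setting. The cause of the turned values was not tested. With equal-median scaling they were, for HCC minus NT, miR-99a 0.099, miR-100 0.069, miR-125a-5p 0.010 and miR-125b-5p 0.21; for NT minus normal, miR-99a 0.027 and miR-100 0.078; and for HCC minus normal, 0.13, 0.15, 0.37 and 0.20 for miR-99a, miR-100, miR-125a-5p and miR-125b-5p. With equal 75th percentile scaling they were 0.053, 0.023 and 0.17 (miR-99a, miR-100 and miR-125b-5p, HCC minus NT), 0.00161 and 0.053 (miR-99a and miR-100, NT minus normal), and 0.055, 0.075, 0.30 and 0.13 (the 4 members above, HCC minus normal). The authors' values turned miR-99a (0.093) and miR-100 (0.088) for NT minus normal and miR-125a-5p (0.30) for HCC minus normal; relative to the shift of all probes there (medians of 0.32 and 0.31) these were -0.23, -0.23 and -0.00273, so none turned against it.

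MiR-99b, whose differences were near 0, turned for HCC minus NT with cyclic loess (-0.000657), an offset of 10 (-0.00335), HCC 2-1 and 2-2 averaged (-0.022), and the blank level subtracted, scaled after (-0.070) or before the floor (-0.069). It turned for NT minus normal with the blank level (-0.12 in both orders) and without background correction (-0.12), and for HCC minus normal there (-0.19, -0.19 and -0.077). With HCC 2-1 and 2-2 averaged miR-125b-5p was 0.022 for HCC minus NT. The chip as a block turned miR-99a (0.20), miR-99b (-0.12), miR-100 (0.26) and miR-125b-5p (0.20) for HCC minus NT and miR-99b (-0.12) for HCC minus normal. Its values for HCC minus NT are the gaps of HCC 1 minus NT 2 on chip 2, to which no other array contributes.

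In a fit with a replicate block by label number, miR-99b was -0.014 for HCC minus NT and the other members kept their direction, with 0 called. The titles number the mice but do not say that equal numbers are the same animal, which stayed unsettled; deviations of same-numbered arrays correlated at 0.164, 0.0244 and 0.154.

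Leaving out each NT and HCC array in turn, the differences of HCC minus NT ran from -0.27 to -0.042 for miR-99a, -0.30 to -0.055 for miR-100, -0.098 to 0.054 for miR-99b, -0.21 to -0.020 for miR-125a-5p and -0.31 (without HCC 1) to 0.16 (without HCC 2-2) for miR-125b-5p. Those of NT minus normal ran from -0.51 to -0.30, -0.44 to -0.27, 0.00284 to 0.054, 0.011 to 0.20 and -0.49 to -0.18 in that order, and those of HCC minus normal from -0.67 to -0.48, -0.65 to -0.42, -0.070 to 0.083, -0.078 to 0.051 and -0.64 to -0.17. With 1 array left in a group, that array was assumed to vary like the others.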
